A study of Mus musculus with 18 samples.

Results

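The SLC5 and SLC6 families are membrane proteins that carry sugars, inositol, vitamins, neurotransmitters, creatine, taurine and amino acids into cells together with sodium. The sodium gradient that drives them is kept up by the sodium pump. In brain, SLC6 proteins clear GABA, glycine and monoamines from the space around neurons and glia. Described here are the rows of the deposited tables whose symbol is Slc5a or Slc6a followed by digits only, without Slc5a5. They are 27 of the 24054 rows, 10 of the SLC5 family and 17 of the SLC6 family. The rows were taken by symbol, without a cut on their values, but the families were chosen with earlier results of these data known.

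Each of the hypothalamus, the pituitary and the thyroid was taken from 3 WT and 3 K146Q male mice, 3 months old, of strain C57BL/Ntac and without treatment, which gave 18 RNA-Seq libraries. K146Q mice are homozygous for a substitution, made by gene targeting in every cell of the body, of the lysine in the second zinc finger of the thyroid hormone receptor THRB, a residue at which SUMO is attached. All THRB isoforms carry it, and the labels name no other allele or agent in either group. The WT mice have the numbers 1, 2 and 43 and the K146Q mice 60, 62 and 83, and the same mouse numbers recur in the 3 tissues.

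Values are normalized CPM, the reads of a gene relative to the size of its library after the authors' scaling. The libraries held 14902330 to 21230050 reads, so that 3 reads correspond to 0.133 to 0.190 CPM. Each library correlated with the mean of the others of its group at 0.981 or more across genes. Thyroglobulin (Tg) made up 23.8% to 29.0% of reads in WT thyroids and 7.97% to 11.5% in K146Q thyroids, and growth hormone (Gh) 10.8% to 20.7% and 6.77% to 8.20% in pituitary. Markers of muscle, of the parathyroid, of fat and of the airway were present in the thyroid libraries and differed in level between them. In whole tissue, fewer cells of a type and less RNA per cell cannot be told apart.

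Since the mutated receptor binds DNA, the 250 bases before the start of the transcript were read for the members, from RefSeq (GRCm38.p6). Promoters matched for 17 of the 27 genes, with 29 starts in all. Slc5a2, Slc5a9, Slc5a12, Slc6a2, Slc6a6, Slc6a7, Slc6a8, Slc6a15 and Slc6a18 were among those with no entry. The motifs were searched on both strands: AGGTCA, the core hexamer of the elements that thyroid hormone receptors bind, TGACGTCA, the element of the cAMP-responsive factor CREB, and TGACG, which lies inside TGACGTCA. AGGTCA was in 5 of the 29 windows (1 each of Slc5a10, Slc5a11, Slc6a11, Slc6a12 and Slc6a13), and in 14.0% of all 32851 promoters of this length. TGACG was in 6 of the 29 (1 each of Slc5a6, Slc6a4, Slc6a5, Slc6a9, Slc6a12 and Slc6a17), beside 17.8% of all, and TGACGTCA in none, beside 1.55%. Shown here are the windows of the member that fell in pituitary and of those that rose in pituitary and fell most in thyroid. Also shown is 1 window of Slc6a17, which fell in thyroid in every fit. Each is written 5′ to 3′ on the strand of the gene and ends at the base before the start. AGGTCA or TGACG, or the same letters on the other strand (TGACCT or CGTCA), are in capitals.
Slc6a11 (chr6:114130991-114131240, plus strand): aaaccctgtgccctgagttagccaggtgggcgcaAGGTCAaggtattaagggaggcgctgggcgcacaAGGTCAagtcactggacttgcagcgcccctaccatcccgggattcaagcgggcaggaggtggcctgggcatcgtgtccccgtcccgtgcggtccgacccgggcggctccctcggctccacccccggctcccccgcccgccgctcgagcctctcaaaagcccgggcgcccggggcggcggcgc
Slc6a17 (chr3:107518019-107518268, minus strand): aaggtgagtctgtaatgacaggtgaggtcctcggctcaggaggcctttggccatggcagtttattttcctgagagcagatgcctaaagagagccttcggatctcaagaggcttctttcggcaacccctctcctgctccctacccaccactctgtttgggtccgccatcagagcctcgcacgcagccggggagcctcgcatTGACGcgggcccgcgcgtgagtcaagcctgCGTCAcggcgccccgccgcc
Slc5a8 (chr10:88885742-88885991, plus strand): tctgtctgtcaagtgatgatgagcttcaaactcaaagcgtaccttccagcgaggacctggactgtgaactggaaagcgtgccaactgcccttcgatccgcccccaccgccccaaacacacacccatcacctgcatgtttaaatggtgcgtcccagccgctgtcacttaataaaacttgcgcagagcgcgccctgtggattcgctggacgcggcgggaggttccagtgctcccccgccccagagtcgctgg
Slc6a3 (chr13:73536497-73536746, plus strand): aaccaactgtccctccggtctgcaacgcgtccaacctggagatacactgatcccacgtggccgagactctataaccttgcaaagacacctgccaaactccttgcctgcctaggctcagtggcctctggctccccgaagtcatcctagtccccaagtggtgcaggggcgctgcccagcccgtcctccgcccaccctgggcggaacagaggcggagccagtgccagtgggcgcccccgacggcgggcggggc
The Slc6a11 window holds AGGTCA in 2 places on the strand of the gene, and the Slc6a17 window shown holds TGACG once on each strand. The window of another Slc6a17 start, chr3:107500741-107500990, holds none of the motifs and is not shown. The Slc5a8 and Slc6a3 windows hold none of the motifs in these 250 bases. A match describes letters and not a bound site, and these data hold no measurement of binding.

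In WT mice the families were spread very unequally over the axis. Per kilobase of merged exon (CPM per kb, the scale on which genes can be set side by side), Slc6a11, a GABA transporter of glia, was the highest member of the hypothalamus with 184 ± 6.19 (SD, n = 3), and the vesicular amino acid transporter Slc6a17 had 50.3 ± 2.32. The glycine transporter Slc6a9 with 31.8 ± 3.13 and the proline transporter Slc6a7 with 28.8 ± 1.46 came next, and the ranges of these neighbours overlapped. In the pituitary Slc6a17 with 24.2 ± 0.323 and the taurine transporter Slc6a6 with 21.0 ± 2.27 led, and Slc6a11 followed with 12.6 ± 1.49. In the thyroid the myo-inositol transporter Slc5a3 with 28.9 ± 8.53, the creatine transporter Slc6a8 with 22.4 ± 1.77 and the monocarboxylate transporter Slc5a8 with 21.8 ± 3.91 led, and the 3 ranges overlapped. Slc5a8, which takes up lactate, pyruvate and short-chain fatty acids, was the 20th member of the WT hypothalamus and the 3rd of the WT thyroid on this scale.

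Single members differed between WT tissues by large amounts. The share of members called in either direction was near that of all genes in each pair of tissues. By limma on log2(CPM + 0.5) over the 9 WT libraries, 16 of the 22 members tested (72.7%) differed between pituitary and hypothalamus. Over all 16622 genes 72.5% did. A member that reaches the filter of 0.5 CPM in 3 libraries only through 1 tissue has to differ. The counts of this paragraph therefore do not speak for the list. Of the 22, 14 were lower in pituitary, beside 35.6% of all genes, and 2 were higher, beside 36.9%. The log2 difference was -6.76 (SE 0.19) for Slc6a7 and -5.21 (SE 0.16) for the dopamine transporter Slc6a3, both with a limma adjusted p of at most 1.28e-09. Slc5a8 was the larger of the 2 rises, with a log2 difference of 3.90 (SE 0.21, limma adjusted p = 5.36e-08). Between thyroid and hypothalamus 19 of 22 members differed, beside 81.3% of all genes, with 5 higher (41.5% of all genes) and 14 lower in thyroid (39.8%). The 5 were Slc5a8 with a log2 difference of 7.05, the sugar transporter Slc5a9 with 6.16, the broad amino acid transporter Slc6a14 with 4.69, Slc5a3 with 2.69 and the epithelial amino acid transporter Slc6a19 with 1.16. Between thyroid and pituitary 16 of 22 differed, beside 74.8% of all genes, with 10 higher (36.4% of all genes) and 6 lower in thyroid (38.3%). These levels rest on the authors' joint scale: when the library totals were recomputed without the 10 highest genes, the median over all genes moved from 0.02 to 0.26 for pituitary against hypothalamus and from -0.03 to -0.26 for thyroid against pituitary. The members called were then 4 higher and 13 lower, and 10 higher and 9 lower, in these comparisons. Over all genes, 62.9% of the calls were then higher in pituitary than in hypothalamus, compared with 50.9% on the deposited scale, and 37.3% compared with 48.7% were higher in thyroid than in pituitary.

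**Figure D1:**
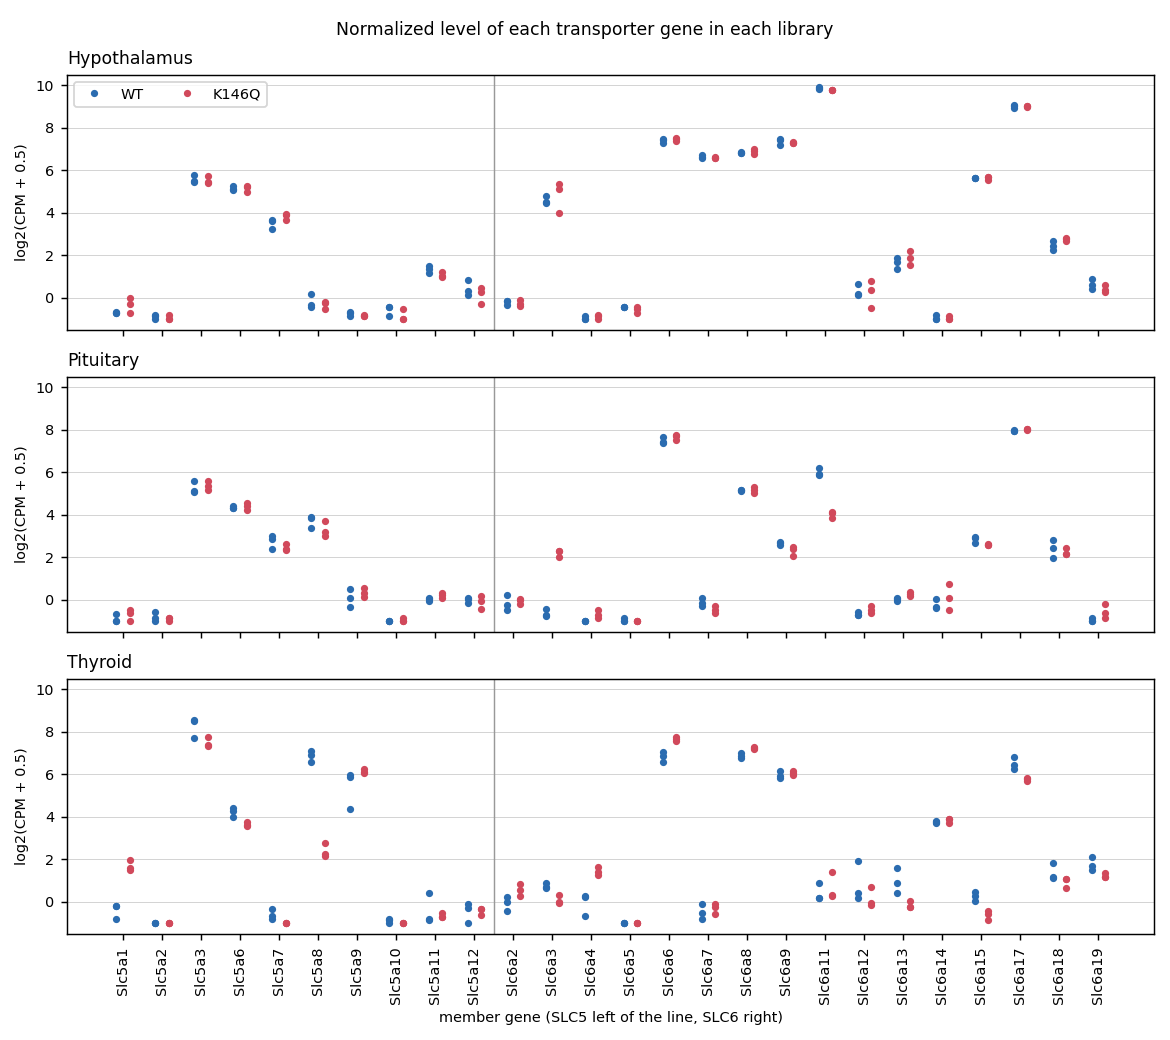
The plot gives log2(CPM + 0.5), vertical axis, of the transporter genes, horizontal axis, in every library, with WT mice in blue and K146Q mice in red (3 mice each) and 1 panel per tissue. The hypothalamus panel shows both colours at close heights, the pituitary panel shows Slc6a11 lower and Slc6a3 higher in red, and the thyroid panel shows Slc5a8 falling from 94.7 to 136 CPM in WT mice to 3.92 to 6.21 in K146Q mice.

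In each tissue K146Q mice were then compared with WT mice, to see which transporters differ with the receptor mutation. A member entered the test when it reached 0.5 CPM in at least 3 of the 6 libraries, which 18 members did in hypothalamus, 19 in pituitary and 20 in thyroid. A member that passes only through the group in which it is high has to differ, so the counts below do not speak for the list. Counts called are at a limma adjusted p under 0.05 over all genes tested in that tissue. An exact permutation test of 3 mice against 3 cannot give a two-sided p below 0.1.

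In the hypothalamus none of the 18 members tested passed, and 0% of all 15761 genes did. At an unadjusted p under 0.05 there were 2 members and 645 genes, and on the reads edgeR called 0 genes and DESeq2 11. Log2 fold changes of the members ran from -0.29 to 0.32, with a median of 0.00 beside 0.00 over all genes. The 2 members with a small unadjusted p were Slc5a7, the choline transporter of cholinergic neurons, with 8.89, 11.8 and 12.2 CPM in WT and 11.95, 14.4 and 14.95 in K146Q mice (95% interval of the log2 fold change 0.03 to 0.61, limma adjusted p = 0.998), and Slc6a18, an amino acid transporter, with 4.18 to 5.78 and 5.86 to 6.504 CPM (0.02 to 0.61, limma adjusted p = 0.998).

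No GABA or betaine transporter passed in this tissue. Slc6a11 had 962, 900 and 929 CPM in the WT animals 1, 2 and 43 and 881, 876 and 886 in K146Q mice 60, 62 and 83. The groups did not overlap, and the 95% interval of the log2 fold change ran from -0.16 to 0.01 (limma adjusted p = 0.998). Slc6a12, which carries betaine and GABA, stayed between 0.215 and 1.25 CPM and the GABA transporter Slc6a13 between 2.08 and 4.04 CPM.

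Slc6a3, the transporter that returns dopamine to dopaminergic neurons, varied widely between K146Q mice, with 40.1, 33.8 and 15.3 CPM, and was at 22.1, 26.6 and 21.4 in WT mice. The groups overlapped, and the interval ran from -0.38 to 0.86. The members that carry amino acids and their derivatives did not pass either. Slc6a17 was at 524, 538 and 491 CPM in WT and at 506, 519 and 527 in K146Q mice. Slc6a9 was at 174, 171 and 145 and at 156, 157 and 157 CPM. Slc6a7 was at 98.3, 105 and 94.6 and at 98.5, 95.5 and 96.0 CPM. In these 3 genes the K146Q values lay within the WT range. Slc6a15, a neutral amino acid transporter of neurons, was at 49.5, 48.7 and 48.5 CPM in WT and at 50.6, 50.8 and 46.4 in K146Q mice. Slc6a6 was at 177, 168 and 157 and at 175, 181 and 165 CPM, and Slc6a8 at 111, 113 and 113 and at 120, 129 and 107 CPM. Each of these pairs of groups overlapped. Slc5a3 was at 43.3, 53.7 and 43.7 CPM in WT and at 43.3, 41.8 and 52.0 in K146Q mice, and Slc5a6, the sodium-coupled transporter of biotin and pantothenate, at 32.7, 37.3 and 34.3 and at 38.2, 36.5 and 30.5. The remaining tested members, Slc5a11, Slc5a12 and Slc6a19, had 0.302 to 2.27 CPM. Slc5a1, Slc5a2, Slc5a8, Slc5a9, Slc5a10, Slc6a2, Slc6a4, Slc6a5 and Slc6a14 did not enter the test, with at most 11 reads in any library.

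**Figure D2:**
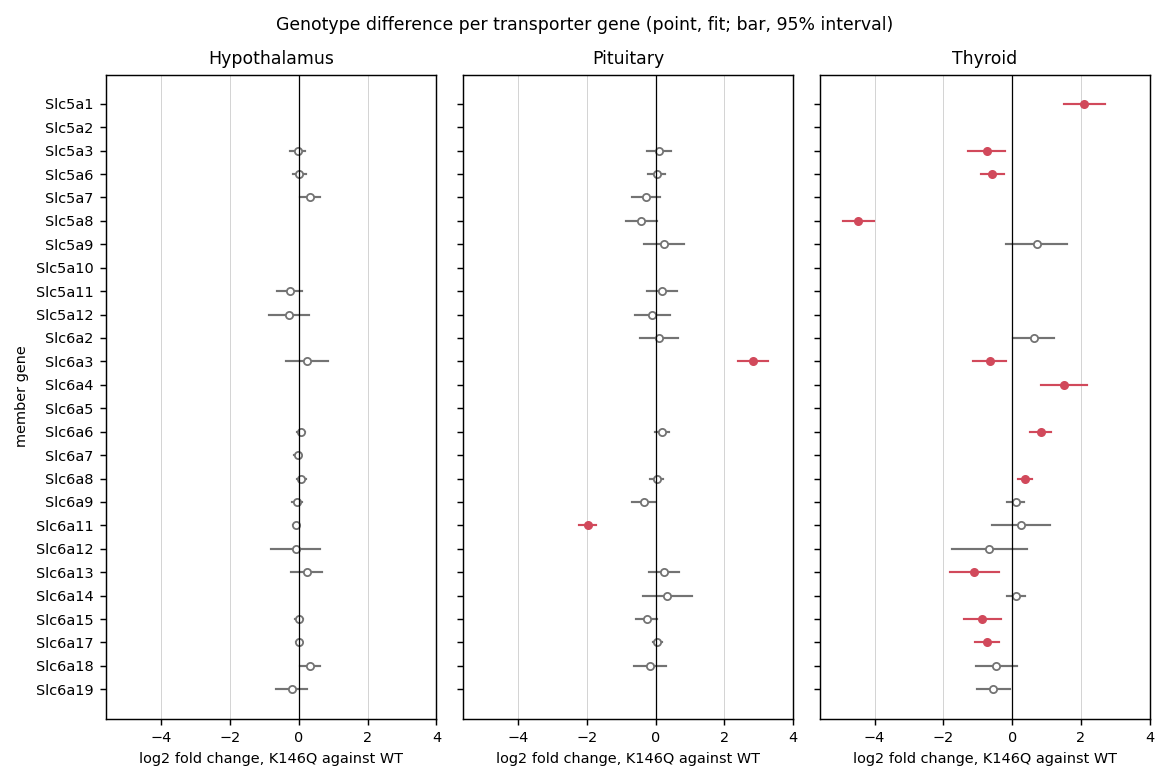
The plot gives the log2 fold change of K146Q against WT mice, horizontal axis, for the transporter genes tested, in 1 panel per tissue; points are limma estimates, bars their 95% intervals, and filled red points have an adjusted p under 0.05 (3 mice per group). No point is filled in hypothalamus, 2 are in pituitary and 11 in thyroid, where Slc5a8 stands farthest from 0 at -4.48.

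In the pituitary 2 of the 19 members tested passed, 1 lower and 1 higher, and 9.86% of all 15589 genes did, 3.5% lower and 6.36% higher. The gene that fell was Slc6a11 and the gene that rose was Slc6a3. The median log2 fold change of the members tested was 0.03 and that of all genes -0.01. Among all genes 991 of 1537 calls were higher, and 837 of 1716 when totals left out the 10 highest genes, while the members called stayed at 1 in each direction.

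Slc6a11, on chromosome 6 from 114131241 to 114249952 on the plus strand (GRCm38, GENCODE annotation), had 58.1, 60.5 and 72.1 CPM in the WT animals 1, 2 and 43 and 13.9, 16.5 and 17.0 CPM in K146Q mice 60, 62 and 83. All 3 K146Q mice were below all 3 WT mice, and the means, 63.6 ± 7.50 and 15.8 ± 1.66 CPM (SD, n = 3), differ 4.02-fold. The log2 fold change was -1.97 (SE 0.11, limma adjusted p = 3.65e-05), and the exact permutation p was 0.1, the smallest that the design allows. It was called in all 15 alternative fits, from -2.03 to -1.88. Slc6a11 is known as a glial GABA transporter. Of the 6 pituicyte genes of the posterior lobe 0 passed, with a median log2 fold change of -0.15, and their sum was 129 to 146.1 CPM in WT and 132 to 138 in K146Q mice. Of the 6 astrocyte genes 1 fell, Slc1a3 by 0.36 (limma adjusted p = 0.0404, a call kept in 1 of 6 leave-one-out fits, with adjusted p up to 0.149), with a list median of -0.11 and sums of 113 to 127 and 107 to 121 CPM. Of the 3 oligodendrocyte genes tested 0 passed, with a median of -0.22, and the 4 genes of that list summed to 57.4 to 91.0 and 48.1 to 60.8 CPM. The part of these cells in the fall of Slc6a11 was not tested.

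Slc6a3, on chromosome 13 from 73536747 to 73578672 on the plus strand, went the other way. WT pituitaries held 2, 4 and 2 reads, or 0.0890, 0.229 and 0.114 CPM, and K146Q pituitaries 85, 86 and 70 reads, or 4.39, 4.39 and 3.51 CPM. The groups lay far apart, with 8 reads in all against 241, a ratio after scaling by library size of 29.4 with a 95% interval of 14.7 to 68.9 that covers counting error only. The log2 fold change, which the added 0.5 holds down for a gene this low, was 2.84 (SE 0.19, limma adjusted p = 6.07e-05). Slc6a3 entered the test only through the K146Q mice. Without any one of mice 60, 62 and 83 it no longer reached the filter and had no value, and 1 member was then called.

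Of the 8 genes of monoamine synthesis and packaging 5 were tested and 2 rose, and of the 5 genes of GABA synthesis, packaging and breakdown 1 of 5 tested rose, beside the 6.36% of all genes that rose. Th, the rate-limiting enzyme of dopamine synthesis, was at 3.43, 3.83 and 1.54 CPM in WT and at 112, 42.4 and 27.6 in K146Q mice, a log2 fold change of 3.98 (SE 0.45, limma adjusted p = 7.43e-04). Gad1, which makes GABA, was at 0.756, 0.229 and 0.684 and at 34.3, 11.3 and 3.36 CPM, a log2 fold change of 3.50 (SE 0.63, limma adjusted p = 0.00793). In both, mouse 60 was highest and mouse 83 lowest, whereas Slc6a3 differed little among these mice. Of the 4 sympathetic neuron genes Th alone was tested, and 1 of the others had 0 reads in every pituitary library. Of the 7 anterior pituitary endocrine genes 2 rose, the thyrotroph genes Tshb and Cga by 4.03 and 2.42 on the log2 scale, and 1 fell, prolactin (Prl) by 1.65 (limma adjusted p = 6.03e-04). Their sum was 133605 to 256980 CPM in WT and 109975 to 119830 in K146Q mice. The summed level of the 4 leukocyte genes went from 14.3 to 19.8 CPM in WT to 24.5 to 54.8 in K146Q mice (2 of 3 tested higher). The part of these cells in the changes of Slc6a11 and Slc6a3 was not tested. Without the filter on low values the calls of Th, Gad1 and Cga were lost, while those of Tshb, Slc6a11 and Slc6a3 were kept.

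The other pituitary members did not pass the test. Slc5a8 was at 14.2, 9.89 and 14.1 CPM in WT and at 7.48, 8.52 and 12.4 in K146Q mice. The groups overlapped, and the interval of its log2 fold change ran from -0.87 to 0.03 (limma adjusted p = 0.229). Slc6a17 was at 252, 246 and 248.6 and at 263, 251 and 260 CPM, and Slc6a6 at 200, 170 and 163 and at 214, 206 and 183 CPM. Slc6a8 was at 33.7, 35.3 and 35.4 and at 38.4, 32.4 and 35.9 CPM. Each of these 3 pairs of groups overlapped. Slc5a3 was at 48.1, 33.0 and 33.9 and at 35.1, 40.3 and 47.1 CPM, and Slc5a6 at 19.7, 19.5 and 21.1 and at 22.7, 20.7 and 18.3 CPM. Slc6a9, with 5.38 to 6.04 CPM in WT and 3.73 to 5.005 in K146Q mice, did not overlap but missed the threshold (95% interval -0.68 to -0.0039, limma adjusted p = 0.193). Slc5a7, Slc5a9, Slc5a11, Slc5a12, Slc6a2, Slc6a13, Slc6a14, Slc6a15 and Slc6a18 had means under 10 CPM and log2 fold changes between -0.28 and 0.34, and among these the groups of Slc6a13 and Slc6a15 did not overlap. Slc5a1, Slc5a2, Slc5a10, Slc6a4, Slc6a5, Slc6a7, Slc6a12 and Slc6a19 did not enter the test, with at most 10 reads in any library.

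**Figure D3:**
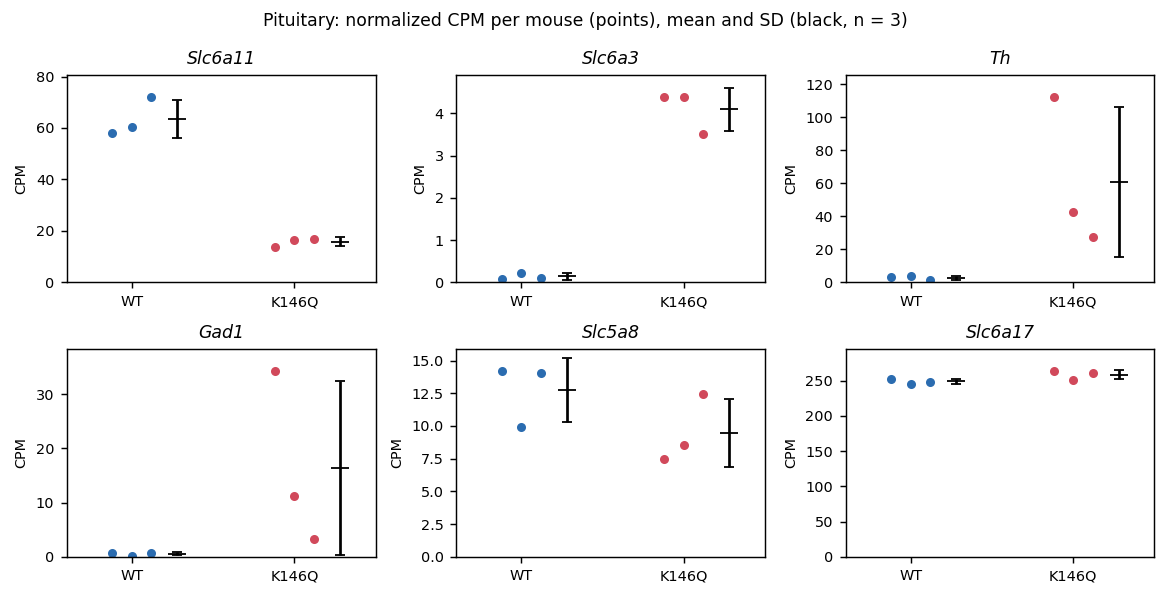
The plot gives CPM, vertical axes from 0, of 4 transporter genes and of Th and Gad1 in the pituitary of each WT (blue) and K146Q (red) mouse, with the mean and SD in black (n = 3). Slc6a11 separates the genotypes downwards and Slc6a3, Th and Gad1 upwards, Th from at most 3.83 to at least 27.6 CPM, while Slc5a8 and Slc6a17 overlap.

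In the thyroid 11 of the 20 members tested passed, 4 higher and 7 lower in K146Q mice, and 37.8% of all 15200 genes did, 19.7% higher and 18.1% lower. Slc5a8 fell most, the sugar transporter Slc5a1 and the serotonin transporter Slc6a4 rose most, and the taurine and creatine transporters Slc6a6 and Slc6a8 rose by less. The median log2 fold change of the members tested was -0.20 and that of all genes -0.03. After rescaling to totals without the 10 highest genes, 40.9% of all calls were higher in place of 52.1%, and the members stayed at 4 and 7.

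Several marker lists moved in the same libraries. The summed level of the 4 C cell genes was 8968 to 14995 CPM in WT and 1370 to 3529 in K146Q thyroids (3 lower, 1 higher), that of the 3 parathyroid genes 3454 to 6409 and 523 to 1569 (3 of 3 lower), and that of the 5 adipocyte genes 640 to 703 and 77.8 to 154 (5 of 5 lower). The 4 fibroblast genes summed to 664 to 810 CPM in WT and 1333 to 1553 in K146Q thyroids (2 higher, 1 lower). The 4 leukocyte genes summed to 113 to 261 and 314 to 429 (1 of 3 tested higher). The 5 skeletal muscle genes ran from 273 to 5663 and from 600 to 3404 CPM, with 0 called. Of the 6 follicular cell genes 3 rose and 1 fell, with a median log2 fold change of 0.38. Tg was not among the genes called in this test. Their sum was 298992 to 360966 CPM in WT and 89814 to 137150 in K146Q thyroids. Most of that sum was Tg, with 23.8% to 29.0% of reads in WT and 7.97% to 11.5% in K146Q thyroids. No gene of the C cell, parathyroid, adipocyte or muscle lists had 0 reads throughout. The part of these tissues in the changes below, of members and of other genes, was not tested.

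Of the 4 carriers of monocarboxylates, vitamins and choline, 2 were tested and 2 fell, beside 18.1% of all genes. Slc5a8, on chromosome 10 from 88885992 to 88929515 on the plus strand, had 118, 136 and 94.7 CPM in the WT animals 1, 2 and 43 and 3.92, 4.23 and 6.21 CPM in K146Q mice 60, 62 and 83. The lowest WT thyroid was above the highest K146Q thyroid, and the means, 116 ± 20.8 and 4.79 ± 1.25 CPM (SD, n = 3), differ 24.3-fold. The log2 fold change was -4.48 (SE 0.19, limma adjusted p = 1.36e-05), the exact permutation p was 0.1, and all 15 alternative fits called it, from -4.66 to -4.35. On the CPM per kb scale Slc5a8 was 3rd of the members in WT and 9th in K146Q thyroids. Slc5a6 was at 15.2, 21.0 and 18.8 CPM in WT and at 13.1, 11.8 and 11.3 in K146Q mice, without overlap, a log2 fold change of -0.58 (SE 0.14, limma adjusted p = 0.0166). Its call was lost without mouse 62 (adjusted p = 0.0618) and without the filter (adjusted p = 0.055). Of its exon bases 9.92% overlap Atraid on the other strand, and whether the counting used strand is not given in the sources used here.

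The sugar and inositol transporters moved in different directions. Slc5a1, which drives glucose uptake in intestine and lies on chromosome 5 from 33104219 to 33162870 on the plus strand, was at 0.379, 0.0633 and 0.361 CPM in WT and at 3.42, 2.29 and 2.52 in K146Q mice, that is 6, 1 and 6 reads against 69, 39 and 43. The groups did not overlap, and the ratio was 10.3 (95% counting interval 5.86 to 19.9). Its log2 fold change was 2.09 (SE 0.26, limma adjusted p = 8.24e-04), and it entered the test only through the K146Q mice, so that without any one of these it had no value. Slc5a9, which carries mannose and glucose, was at 58.2, 20.4 and 62.9 CPM in WT and at 65.5, 67.4 and 76.6 in K146Q mice. The K146Q mice were higher without overlap, but WT mouse 2 stood far below the others, and the change did not pass (95% interval -0.17 to 1.61, limma adjusted p = 0.179). Slc5a3 was at 367, 207 and 370 CPM in WT and at 168, 162 and 219 in K146Q mice, a log2 fold change of -0.75 (SE 0.23, limma adjusted p = 0.0391). WT mouse 2 lay below K146Q mouse 83, so the groups overlapped. The call was lost without WT mouse 1, WT mouse 43, K146Q mouse 60 or K146Q mouse 62 (adjusted p 0.103 to 0.131) and was kept without the others. It was also lost without the filter (adjusted p = 0.159) and without the variance trend (0.0627). Slc5a3 shares 1.46% of its exon bases with Mrps6 on the same strand.

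The taurine and creatine transporters both rose. Slc6a6, on chromosome 6 from 91684053 to 91759066 on the plus strand, was at 114, 93.9 and 132 CPM in WT and at 214, 201 and 186 in K146Q mice, 113 ± 19.0 against 200 ± 13.8 (SD, n = 3), a log2 fold change of 0.83 (SE 0.13, limma adjusted p = 0.00228) that all 15 alternative fits called. Slc6a8 was at 108, 115 and 126 CPM in WT and at 143, 157 and 151 in K146Q mice, a log2 fold change of 0.37 (SE 0.09, limma adjusted p = 0.0125), and its call was lost without mouse 62 (adjusted p = 0.0614). Neither pair of groups overlapped. Of the 4 taurine synthesis genes 2 fell and 0 rose, and of the 6 genes of creatine synthesis and use 1 fell and 0 rose. Over all genes 18.1% fell and 19.7% rose. Cdo1, which starts taurine synthesis from cysteine, fell from 105, 109 and 124 CPM to 22.8, 11.2 and 15.5 (log2 fold change -2.78, limma adjusted p = 1.55e-04). Fmo1, which can form taurine from hypotaurine, fell by 2.14 and the mitochondrial creatine kinase Ckmt1 by 1.59 on the log2 scale.

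Of the 3 monoamine transporters all were tested, 1 rose and 1 fell. Slc6a4, on chromosome 11 from 76998603 to 77032340 on the plus strand, was at 0.695, 0.127 and 0.662 CPM in WT and at 1.93, 2.174 and 2.58 in K146Q mice, with 24 reads in the WT and 120 in the K146Q libraries. The groups did not overlap, the ratio was 4.45 (95% counting interval 2.85 to 7.21), and the log2 fold change was 1.51 (SE 0.29, limma adjusted p = 0.00581). All 14 alternative fits in which it was tested called it. Of the 4 mast cell genes 3 rose in the same libraries, Tpsb2 by 1.40 and Mcpt4 by 1.81 on the log2 scale, while the summed level of the list was 39.8 to 80.9 CPM in WT and 46.7 to 52.3 in K146Q mice. Slc6a3 was at 1.14, 1.33 and 1.08 CPM in WT and at 0.496, 0.470 and 0.762 in K146Q mice, a log2 fold change of -0.65 (SE 0.21, limma adjusted p = 0.0404) that was called in 1 of the 6 fits leaving out a mouse, the fit without mouse 83, and was not called by DESeq2. The norepinephrine transporter Slc6a2 was at 0.253 to 0.662 and at 0.703 to 1.29 CPM and did not pass (limma adjusted p = 0.0949). Of the genes of monoamine synthesis and packaging 3 were tested and 2 fell. Ddc, which forms dopamine and serotonin, was at 11.7, 13.6 and 6.13 CPM in WT and at 1.39, 1.117 and 0.645 in K146Q mice (log2 fold change -2.78, limma adjusted p = 6.34e-04), and the vesicular carrier Slc18a1 fell by 1.87.

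Among the amino acid and GABA carriers, Slc6a17 was at 85.4, 113 and 75.4 CPM in WT and at 51.5, 56.4 and 54.1 in K146Q mice. The groups did not overlap, and the log2 fold change of -0.73 (SE 0.14, limma adjusted p = 0.00635) was called in all 15 alternative fits. Slc6a15 was far lower, at 11, 14 and 9 reads against 5, 1 and 3, a log2 fold change of -0.87 (SE 0.23, limma adjusted p = 0.0224). Its call was lost without mouse 62 or mouse 83 (adjusted p = 0.0879 and 0.0525) and with DESeq2 (0.0507). It entered the test only through the WT mice, so that it had no value when a WT mouse was left out. Slc6a13 was at 1.33, 2.47 and 0.842 CPM in WT and at 0.347, 0.353 and 0.528 in K146Q mice, a log2 fold change of -1.10 (SE 0.31, limma adjusted p = 0.0268) that only the fit without WT mouse 43 kept among those leaving out a mouse. For the other 5 mice the adjusted p was 0.0513 to 0.0879, and without the filter it was 0.0862. Of the genes of GABA synthesis, packaging and breakdown 1 of 4 tested fell, Aldh5a1 of GABA breakdown, by 0.90.

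The 9 thyroid members that did not pass had log2 fold changes between -0.67 and 0.72. Slc6a9 was at 71.8, 56.1 and 59.3 CPM in WT and at 66.0, 71.3 and 63.0 in K146Q mice, with 27.8% of its exon bases under Ccdc24 on the other strand. Slc6a14 was at 13.3, 12.5 and 12.8 and at 12.5, 14.5 and 14.6 CPM. Both overlapped, and the interval for Slc6a14 ran from -0.16 to 0.36. Slc6a19 was at 2.34 to 3.86 CPM in WT and at 1.73 to 2.06 in K146Q mice without overlap, and missed the threshold (limma adjusted p = 0.0725). Slc6a11, Slc6a12 and Slc6a18 ranged from 0.397 to 3.23 CPM. Slc5a2, Slc5a7, Slc5a10, Slc5a11, Slc5a12, Slc6a5 and Slc6a7 did not enter the test, with at most 13 reads in any library, and Slc5a2 and Slc6a5 had 0 reads in all 6.

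**Figure D4:**
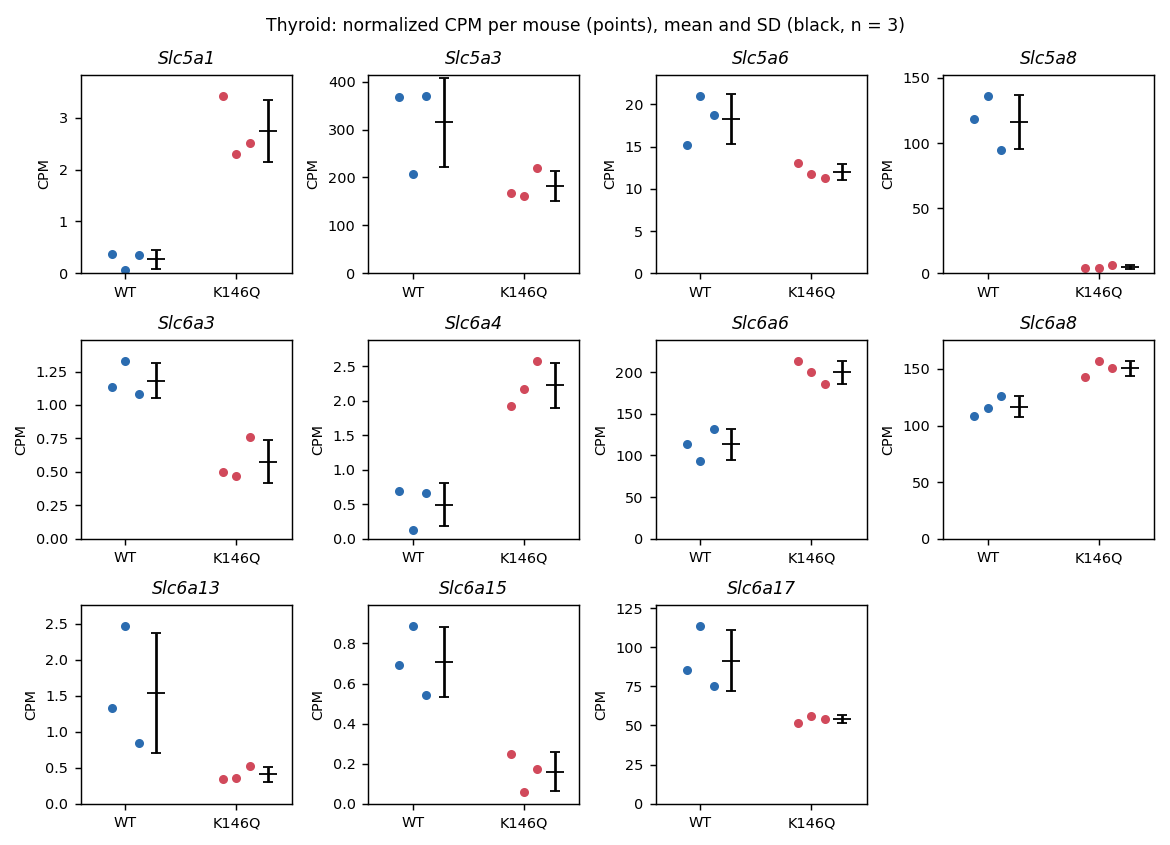
The plot gives CPM, vertical axes from 0 with a scale per gene, of the 11 transporter genes with an adjusted p under 0.05 in the thyroid of each WT (blue) and K146Q (red) mouse, with the mean and SD in black (n = 3). Slc5a1, Slc6a4, Slc6a6 and Slc6a8 are higher in K146Q mice and the other 7 lower; in Slc5a3 alone the groups overlap, at 207 CPM in a WT and 219 in a K146Q mouse.

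Lists of genes beside the families were counted in the same fits. Over all genes tested, 6.36% rose and 3.5% fell in pituitary, and 19.7% rose and 18.1% fell in thyroid. The lists are short, so their counts describe single genes and not the lists. Of the 13 sodium pump subunits 10 were tested in pituitary, where 4 rose and 1 fell, and 11 in thyroid, where 2 rose and 2 fell. The pump regulator Fxyd5 rose in both, by 1.91 in pituitary (limma adjusted p = 0.00236) and 1.25 in thyroid (limma adjusted p = 2.01e-04), and Atp1b2, a beta subunit, rose by 0.67 in pituitary. Of the 6 partner proteins that SLC6 and SLC5 members of epithelia need or bind, 5 were tested and 2 rose in pituitary, Tmem27 with 0.515 to 1.08 CPM in WT and 4.85 to 10.2 in K146Q mice among them, and 1 of 3 tested rose in thyroid, Slc9a3r1. Of the members that need such a partner at the cell surface, Slc6a18 did not pass in pituitary and Slc6a19 had at most 7 reads there. Among sodium-independent carriers of the same substrates, 2 of 6 tested proton-coupled monocarboxylate transporters fell in thyroid, Slc16a1 by 1.86 and Slc16a7 by 1.83, and 2 of 7 tested facilitative glucose transporters fell, Slc2a4 by 1.84 and the fructose carrier Slc2a5 by 1.01. Of 6 tested genes of inositol synthesis and osmotic response 2 rose in thyroid, with Akr1b3, which makes sorbitol, at 42.9 to 52.1 CPM in WT and 68.8 to 88.0 in K146Q mice. Of the called genes, Tph2, Fxyd1, Slc1a3, Slc16a6 and Slc2a3 in pituitary and Ache, Fxyd1, Atp1b3, Slc38a2, Cpa3 and Slc9a3r1 in thyroid lost their calls in 2 or more of the 6 fits leaving out a mouse. Of the choline and acetylcholine list 1 of 3 tested genes fell in thyroid and 0 of 3 changed in pituitary, and in pituitary 0 of 4 taurine and 0 of 6 inositol genes changed, 1 of 5 creatine genes (Ckmt1) and 1 of 6 monocarboxylate transporters rose, and 1 of 8 glucose transporters fell. None of these lists had a called gene in hypothalamus.

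The genotype effects were also compared between tissues, in a fit of all 18 libraries with 24 members tested. Pituitary and hypothalamus differed in 2 members, Slc6a11 and Slc6a3, where 3.24% of all 17140 genes did, 2.29% higher and 0.945% lower in pituitary. Thyroid and pituitary differed in 14 members, 6 higher and 8 lower in thyroid, beside 33.8% of all genes (16.4% and 17.4%), and thyroid and hypothalamus in 10, 4 higher and 6 lower, beside 30.8% (15.6% and 15.2%). The effect on Slc5a8 was lower in thyroid than in pituitary by 4.06 (SE 0.32, limma adjusted p = 8.10e-08) and than in hypothalamus by 4.35 (SE 0.32, limma adjusted p = 4.90e-08). Slc5a8 held only 3 to 11 reads in hypothalamus, so its difference from that tissue largely restates the thyroid change. The effect on Slc6a11 in pituitary was lower than in hypothalamus by 1.89 (SE 0.32, limma adjusted p = 0.00229) and lower than in thyroid by 2.23 (SE 0.32, limma adjusted p = 5.07e-05). In pituitary the effect on Slc6a3 exceeded that in hypothalamus by 2.60 (SE 0.36, limma adjusted p = 4.47e-04). When totals left out the 10 highest genes, thyroid and hypothalamus differed in 11 members, 3 higher and 8 lower, and 39.1% of all calls were higher in place of 50.7%. The corresponding share for pituitary and hypothalamus went from 70.8% to 58.4%.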

How the data were processed

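RNA was sequenced from the hypothalamus, pituitary and thyroid of 3 WT and 3 K146Q mice. The submitters' processing notes name bcl2fastq 2.17, Bowtie2 2.1.0, RSEM 1.2.15 and the mm10 build. The collection of the thyroids, and whether counting used strand, are not given in the sources used here. The authors deposited 1 table of normalized signal per tissue, gene counts divided by a size factor of the library and here written as CPM, and their own columns of fold changes, likelihood ratios, p-values and FDR, which were not used. Every sample column was mapped to a labelled mouse. The values are whole multiples of 1 read for at least 99.9958% of genes (tolerance 0.01 reads), so reads could be recovered for edgeR and DESeq2 as alternatives. All 18 libraries share the same genes and scale.

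Values were tested with limma 3.58.1 (variance trend, R 4.3.3) on log2(CPM + 0.5), for genes that reached 0.5 CPM in 3 or more of the fitted libraries, with Benjamini-Hochberg adjustment over all genes tested and a threshold of 0.05. A fold change on this scale understates the change of low genes. Genotypes were compared within a tissue (6 libraries), genotype effects between tissues in 1 fit of 18 libraries, and WT tissues in 1 fit of 9. Replicates are separate mice, and their counts differed by more than sampling noise (chi-square per degree of freedom at least 6.12). The same number is the same mouse in all tissues, per the series design. Of 18 correlations of the deviations of 2 tissues of 1 mouse, 3 were above 0.1 (-0.0270 to 0.174), and fits with mouse as a block were run as an alternative. Other alternatives were pseudocounts, filters, scalings, no variance trend, edgeR 4.0.16, DESeq2 1.42.0 (adjusted p given as NA stays NA) and leaving out each mouse. Counting intervals are exact at 95% and cover counting error only. On simulated data for the thyroid (14999 genes, 200 changed) 96% of genes changed by 1 and 100% of those changed by 2 on the log2 scale were recovered, with 4.39% of calls false. For the difference between thyroid and pituitary (17122 genes) it was 59% and 94%, with 4.97% false, and for these tissues in WT mice (16411 genes) 99% and 100%, with 5.69% false. Changes were planted only in genes with many reads, and all genes were drawn with the same assumed spread between mice. These shares therefore do not describe members with few reads, such as Slc5a1, Slc6a4 and Slc6a15 in thyroid.

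Members are named by symbol and given in every library where called or above 10 CPM in a group mean, and otherwise by range. Of each list beside them, at most 4 called genes were named, by size of change. Some genes that are in the counts, 1 of the 27 members among them, are not reported here by name or value. Members and lists were chosen with earlier results of these data known. Coordinates and exon lengths are from GRCm38 with GENCODE M21.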

Additional observations from a re-analysis of the deposited data

Results flagged for a closer look

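In 26 combinations of a member and a pair of tissues the genotype effects differed by the test of the difference itself (limma, adjusted p under 0.05, 18 libraries). Values are differences on the log2 scale. Between pituitary and hypothalamus the effect was lower in pituitary for Slc6a11 (-1.89) and higher for Slc6a3 (2.60).

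Between thyroid and pituitary the effect was higher in thyroid for Slc6a11 (2.23), Slc5a1 (1.91), Slc6a4 (1.21), Slc6a6 (0.65), Slc6a9 (0.44) and Slc6a8 (0.34). It was lower for Slc5a8 (-4.06), Slc6a3 (-3.49), Slc6a13 (-1.34), Slc6a19 (-0.94), Slc5a3 (-0.85), Slc6a17 (-0.79), Slc6a15 (-0.61) and Slc5a6 (-0.60). Of these, Slc5a3 lost its call without mouse 43, 60 or 62 and without the filter, Slc6a9 without mouse 2, 43 or 62 and without the filter, and Slc6a8 without mouse 1, 2 or 62. Slc5a6 lost it without mouse 2 or 62, Slc6a19 without mouse 2 or 60, Slc6a15 without mouse 2 or 62 and with a pseudocount of 1, and Slc6a4 with a pseudocount of 0.1. Slc6a9 was called in neither tissue alone, with a log2 fold change of 0.10 in thyroid and -0.34 in pituitary. Slc6a19 was not called in thyroid and did not enter the test in pituitary alone.

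Between thyroid and hypothalamus the effect was higher in thyroid for Slc5a1 (1.74), Slc6a4 (1.46), Slc6a6 (0.78) and Slc6a8 (0.30). It was lower for Slc5a8 (-4.35), Slc6a13 (-1.32), Slc6a15 (-0.88), Slc6a17 (-0.73), Slc5a7 (-0.71) and Slc5a6 (-0.58). Slc5a1, Slc5a8 and Slc6a4 did not enter the test in hypothalamus alone, where libraries held 2 to 10, 3 to 11 and 0 to 1 reads. The added 0.5 holds their effects there near 0, so these differences largely restate the thyroid changes. Slc5a7 was not tested in thyroid alone, where WT mice held 2, 1 and 5 reads and K146Q mice 0, 0 and 0. The limma adjusted p was 0.0489 for Slc6a8 and 0.0443 for Slc5a7, the weakest in this comparison. The call of Slc6a8 was lost in 10 of 14 alternative fits and that of Slc5a7 in 7 of 13, and each was kept in 1 of the 6 fits leaving out a mouse, Slc6a8 without mouse 43 and Slc5a7 without mouse 2. Slc5a6 lost its call without mouse 43 or 62.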

How the results depend on the processing

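Signs were checked for members called in any fit of a comparison and for non-member genes named here. None of these log2 fold changes and tissue differences changed sign under the alternatives run. Members called in no fit of a comparison were not checked, among them all members in the genotype comparison of the hypothalamus. The balance of calls over all genes did change with totals that left out the 10 highest genes, in pituitary from 991 higher and 546 lower to 837 and 879, and in thyroid from 2992 and 2747 to 2496 and 3613. In the hypothalamus 12 genes were called without the filter and 11 by DESeq2, and 0 to 6 when a mouse was left out, but no member in any fit. In the pituitary 1 member was called with at least 1 CPM in every library, which removes Slc6a3, and 1 to 2 without a mouse; 291 genes were called without the filter and 625 to 1345 without a mouse, fewest without K146Q mice 60 (625) and 62 (752). In the thyroid 6 members were called with at least 1 CPM, and 4 to 8 without a mouse (7 without WT mouse 1, 7 without K146Q mouse 60, 4 without mouse 62), beside 3602 to 5106 genes. Requiring 1 CPM in every library left 7 members in the fits across tissues. Of these 7 the differences between tissues were called for 0 (343 of 11933 genes, pituitary and hypothalamus), 6 (4274 genes, thyroid and pituitary) and 4 (4025 genes, thyroid and hypothalamus), and the WT differences for 4, 6 and 6 (9173, 9316 and 9962 of 12335 genes). Leaving out a mouse gave 2 to 2 members and 228 to 446 genes, fewest without mice 60 (228) and 62 (250), for pituitary and hypothalamus. It gave 8 to 14 members and 4027 to 5457 genes for thyroid and pituitary (9 without mouse 2, 8 without mouse 62), and 6 to 10 members and 3476 to 4680 genes for thyroid and hypothalamus, lowest without mouse 62. The causes of these changes were not tested.

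With the mouse number as a replicate block the members called were 2, 14 and 10 for the differences between pituitary and hypothalamus, thyroid and pituitary, and thyroid and hypothalamus, and 16, 16 and 18 for the WT differences, compared with 16, 16 and 19. The WT call lost was Slc6a13 between thyroid and hypothalamus (limma adjusted p = 0.0528). Among the differences between genotype effects the block changed the calls of Slc5a3 (limma adjusted p = 0.0430, gained) and Slc6a8 (0.0597, lost), both between thyroid and hypothalamus. Genotypes share no mouse, so no paired analysis applies within a tissue. Depth limits members under 0.133 to 0.190 CPM, the value of 3 reads.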

Other observations

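Some members below the filter held a few reads, more in K146Q mice for some and more in WT mice for others. In pituitary Slc6a4, the serotonin transporter, had 0, 0 and 0 reads in WT and 4, 1 and 2 in K146Q mice. Slc6a19 had 1, 0 and 0 reads and 7, 3 and 1. Slc6a7 went the other way there, with 7, 7 and 10 reads in WT and 4, 6 and 3 in K146Q mice. These counts are too few for a test, and no fold is given.

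In the WT thyroids mouse 2 was the highest of the 3 mice for 9 of the 20 members tested and the lowest for 7. It was the lowest for Slc5a3 (207 CPM, the others 367 and 370) and Slc5a9 (20.4 CPM, the others 58.2 and 62.9), and the highest for Slc5a8 (136 CPM) and Slc6a17 (113 CPM).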
